A study of Mus musculus with 12 samples.

Results

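Eosinophils isolated from blood were compared with eosinophils isolated from bone marrow of control mice, using 6 of the 12 RNA-seq libraries of the series. The groups were Control-Blood (3 libraries) and Control-BoneMarrow (3 libraries), as given by the sample titles. The control mice were eoCreIl5tg, so both groups carried the Cre recombinase inserted at the eosinophil peroxidase gene (Epx tm1.1(cre)Jlee) and the Il5 transgene Tg(Cd3d-Il5)NJ.1638Nal, in which a T cell promoter drives interleukin 5 and raises eosinophil numbers. No allele of Atg5 was floxed in these mice, and no treatment is named for them. The other 6 libraries came from blood and bone marrow of Atg5flox/floxeoCreIl5tg mice, in which Cre deletes part of Atg5, and are used here only as an independent look at the same tissue contrast. The age of the animals and their background strain are not given for these libraries in the sources used here.

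The comparison asks how the RNA of eosinophils in circulation differs from that of eosinophils still in the tissue where they are made. Eosinophils arise in bone marrow from dividing progenitors under transcription factors such as GATA1 and C/EBP proteins. As they mature they stop dividing, make the cationic proteins of their granules and acquire the receptors with which they respond to interleukin 5, eotaxins and other chemoattractants. Mature cells leave the marrow, circulate briefly and enter tissues such as gut, lung and fat, where cytokine signals prolong their survival. The Il5 transgene means that the cells of both groups were made under an excess of interleukin 5, so the levels below describe eosinophils of these transgenic mice.

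Cells were purified in both tissues by removing cells bound by a set of antibodies that included those to CD8α, CD90.2 and Ly6G, with no positive selection for an eosinophil marker. The study describes this step as removing neutrophils, macrophages and both B and T cells. Blood was in addition layered over a density medium and its red cells were lysed with water, whereas marrow was flushed from bone, so that tissue and isolation procedure cannot be told apart in any difference below. The series describes 3 control mice but does not say whether libraries of the same number came from the same animal, and the p-values treat the 6 libraries as independent samples. The deposited counts summed to 18885052, 25072780 and 23777837 in blood replicates 1 to 3 and to 30270166, 24095367 and 27132408 in marrow. Levels are given as CPM, counts scaled by library size and TMM factors, which correct for differences in RNA composition. These factors were 0.878 to 0.927 in blood and 1.10 to 1.13 in marrow. Mitochondrial genes took 1.13 to 1.58% of the counts in blood and 0.806 to 0.961% in marrow. Within each group the spread of the counts exceeded sampling noise, the chi-square between pairs of replicates being 16.9 to 363 times its degrees of freedom.

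Blood replicate 1 stood apart. Its log2 CPM values correlated across genes with those of the other blood libraries at 0.949 and 0.938, against 0.976 between blood replicates 2 and 3 and 0.978 to 0.987 among marrow libraries. Genes are not independent replicates, and these correlations are a description. The 15 red cell genes took 14.6, 0.539 and 1.42% in blood and 0.139, 0.25 and 0.20% in marrow, so that 1 blood library held most of this RNA. Counts of called genes in the lists below are therefore also given without blood replicate 1 where they then moved by at least 1.5 times, and values of genes that rest on this library are given both ways.

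The labelled cell type was checked with 10 eosinophil genes, among them Epx, Prg2, Siglecf and Ccr3. Together they took 2.24, 2.97 and 4.05% in blood and 9.1, 8.11 and 8.04% in marrow. All 10 genes were detected and tested in both groups, so the groups differed in the amount of these transcripts and not in their presence. The members differed in direction, with 2 higher in blood (Siglecf and Ccr3), 6 lower and 2 not called. Prg2 had the highest level of the 10, with a mean of 15906 CPM in blood and 44552 CPM in marrow. Marrow libraries held more RNA of early granulocytes, with a share on azurophil granule genes of 0.0133, 0.00892 and 0.00807% in blood and 0.262, 0.324 and 0.312% in marrow. The 18 neutrophil genes took 1.95, 1.82 and 1.39% in blood and 2.42, 3.41 and 3.36% in marrow, and the 12 genes of haematopoietic progenitors 0.0228, 0.0203 and 0.0238% in blood and 0.0514, 0.0534 and 0.0514% in marrow. Blood libraries held more lymphoid RNA. The 10 NK cell genes took 0.063, 0.0367 and 0.029% in blood and 0.000532, 0.000917 and 0.000892% in marrow, the 13 B cell genes 0.0655, 0.021 and 0.0175% in blood and 0.00877, 0.0112 and 0.0121% in marrow and the 18 T cell genes 0.0278, 0.00515 and 0.00328% in blood and 0.0014, 0.00183 and 0.00188% in marrow. In an exact permutation test of each share (two-sided, 3 against 3 libraries, smallest possible p = 0.1), 12 of the 14 marker lists reached 0.1, with an adjusted p of 0.117, while platelets gave p = 0.6 and plasma cells p = 0.9. The shares are of all counts of a library and do not use TMM factors. On the TMM scale the summed CPM of neutrophil genes, of basophil and mast cell genes and of stroma genes overlapped between the groups. The sums of monocyte genes and of platelet genes were then higher in every blood library than in every marrow library. Because these are bulk samples, fewer cells of a type and less RNA per cell cannot be told apart.

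**Figure D1:**
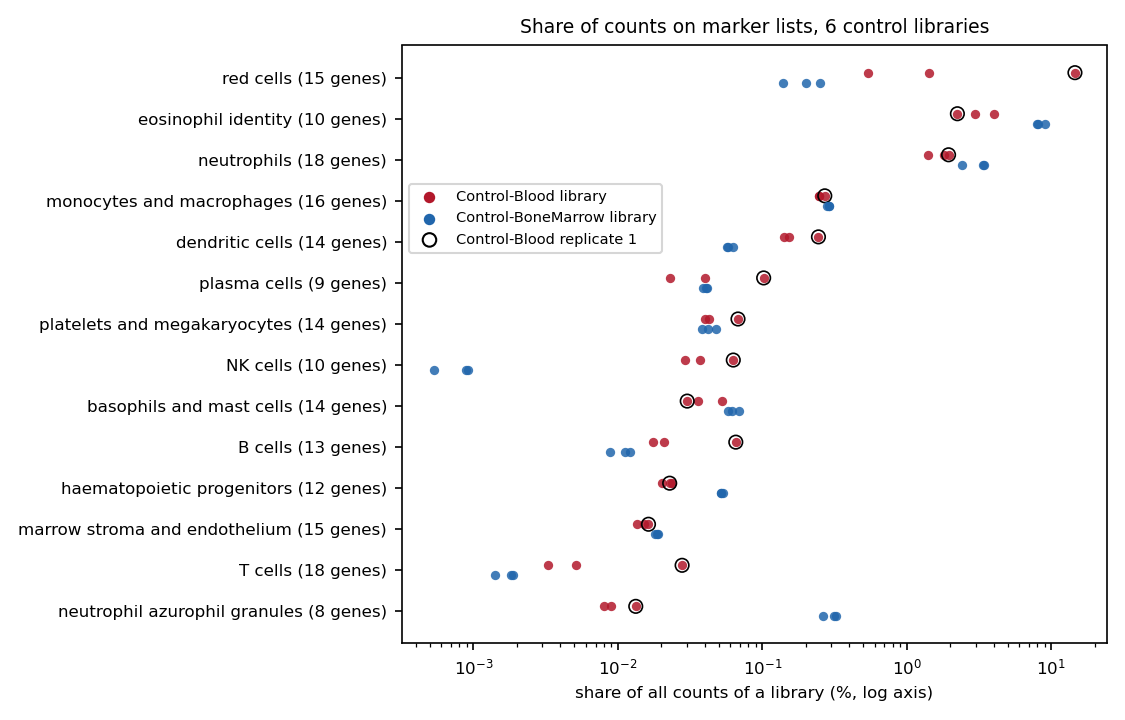
Share of all counts of a library (%, log axis) on 14 lists of cell type markers, with a point for each of the 3 Control-Blood and 3 Control-BoneMarrow libraries and a ring around blood replicate 1. Red cell genes took 14.6% of the counts of blood replicate 1 and at most 1.42% in the other libraries, azurophil granule genes were higher in all marrow libraries and NK cell genes in all blood libraries.

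Genes that were lower in blood included most tested genes of cell division and of azurophil and eosinophil granules, and genes that were higher included most tested immediate early genes, NF-kB targets, adhesion molecules and genes of antigen presentation, as detailed by gene below. Of 13669 genes that passed the filter on low counts, 2212 were higher in blood (16.2%) and 2466 lower (18%) at an adjusted p under 0.05 (edgeR's quasi-likelihood test with Benjamini-Hochberg adjustment). The median size of the change was 1.17 on the log2 scale among genes that were higher and 1.35 among those that were lower. At the additional threshold used in the study, a log2 fold change beyond 2, 599 genes were higher (4.38%) and 710 lower (5.19%), and beyond 4 there were 187 and 188. Of the called genes, 1912 of those higher and 2311 of those lower were protein-coding. Every blood library exceeded every marrow library for 3147 genes (23%), and every blood library was below every marrow library for 3696 (27%).

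The calls held in number when blood replicate 1 was left out, with 2808 genes higher (19.9% of 14099) and 3118 lower (22.1%). Of the genes called with all 6 libraries, 2083 of those higher and 2391 of those lower were called again, and 0 with the opposite sign. At the second threshold 563 genes were then higher (3.99%) and 933 lower (6.62%), and 475 of the 599 and 666 of the 710 remained beyond 2 in the same direction. Leaving out a marrow library reduced the counts, to 1402 and 1639 without replicate 1, 1329 and 1665 without replicate 2, and 1163 and 1464 without replicate 3. The median log2 fold change over all tested genes was -0.0029. With library size alone in place of TMM it was -0.31, and 1308 genes were then higher and 3906 lower, so that 25.1% of the calls were higher in place of 47.3%. Fold changes below are relative to the TMM scale, and the counts of called list members stand beside 16.2% higher and 18% lower over all tested genes, or 19.9% and 22.1% without blood replicate 1.

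**Figure D2:**
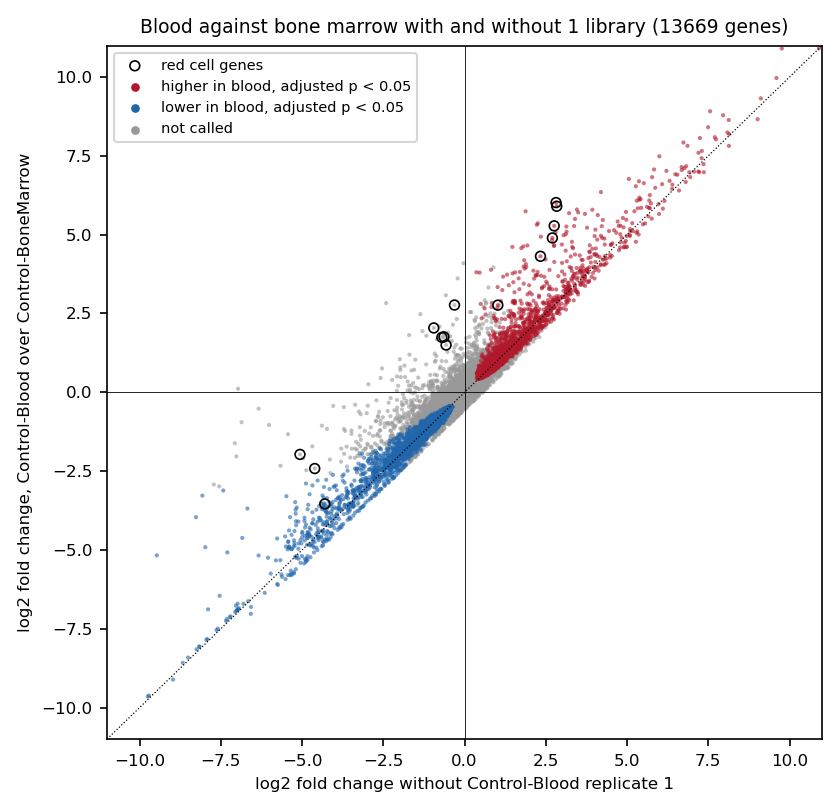
log2 fold change of each gene, Control-Blood over Control-BoneMarrow, with all 6 libraries and without blood replicate 1. Most called genes lie near the diagonal, while red cell genes (rings) lie off it, such as Hbb-bs at 5.28 with all libraries and 2.76 without that library.

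The 12 protein-coding genes of largest rise in blood by the rule were led by Ccl5, a chemokine made by cytotoxic lymphocytes and other leukocytes, at chr11:83525778-83530518 (GRCm38). It was at 285, 119 and 131 CPM in blood and 0.418, 0.526 and 0.392 CPM in marrow, a log2 fold change of 8.64 (SE 0.47, edgeR adjusted p = 8.82e-06). The pore-forming protein gene Prf1 and the granzyme genes Gzma and Gzmb, all products of killer lymphocytes, followed with log2 fold changes of 7.6, 7.11 and 7.14. Together with Il2rb (6.49), a receptor subunit for interleukins 2 and 15, and the NK receptor gene Klra4 (5.85), these genes moved with the NK cell share given above. That list itself holds Gzma, Gzmb and Prf1, and Gzma makes up most of its counts in blood, so for these genes the likeness is built in. Its other 7 members were also higher in blood, and the part of NK cells in the values was not tested.

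The other genes of this group were of several kinds. Tppp3, a tubulin-binding protein, was at 143, 179.6 and 161 CPM in blood and 2.6, 2.59 and 1.99 CPM in marrow, with blood libraries close to each other and a log2 fold change of 6.07 (SE 0.21, edgeR adjusted p = 2.16e-06). Tgm2, a transglutaminase that cross-links proteins, was at 216, 116 and 484 CPM in blood and 4.36, 1.09 and 2.45 CPM in marrow, so that the blood libraries differed among themselves but none came near marrow. Adamdec1, a secreted metalloprotease-like protein of macrophages and dendritic cells, was at 71, 154 and 207 CPM in blood and 2.96, 2.48 and 3.1 CPM in marrow. Ace, the angiotensin-converting enzyme, was at 155, 70.2 and 100.1 CPM in blood and 1.37, 0.564 and 0.261 CPM in marrow, with a log2 fold change of 7.17 (SE 0.56, edgeR adjusted p = 4.19e-05). The values of Alas2, which starts haem synthesis, and the globin gene Hbb-bt rested on blood replicate 1. Alas2 was at 4581, 86.2 and 271 CPM in blood and 22.6, 23 and 30.6 CPM in marrow, and its log2 fold change of 6.02 became 2.82 without that library, as that of Hbb-bt went from 5.9 to 2.84. Both calls were lost without marrow replicate 1. A single library moved further values by over 1.5-fold, namely Ace (8.03 without marrow replicate 1), Klra4 (5.22 without marrow replicate 1), Il2rb (5.87 without blood replicate 1) and Tgm2 (5.97 without blood replicate 3), with direction and call kept.

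Among the 12 genes of largest fall, 5 belong to the granule programme of early granulocytes. Elane, neutrophil elastase, at chr10:79886247-79888215, was at 0.716, 1.34 and 0.671 CPM in blood and 483, 544 and 514 CPM in marrow, a log2 fold change of -9.11 (SE 0.30, edgeR adjusted p = 2.16e-06). Mpo, myeloperoxidase, was at 9.06, 5.64 and 8.62 CPM in blood and 1006, 1225 and 1181 CPM in marrow. Prtn3 and Ctsg, further serine proteases of azurophil granules, changed by -6.81 and -6.63, and Fcnb, a ficolin of early granulocytes, by -5.22. Ms4a3, a membrane protein of granulocyte and monocyte progenitors, was at 3.4, 0.603 and 0.862 CPM in blood and 112, 157 and 140.3 CPM in marrow, with a log2 fold change of -6.46, or -7.54 without blood replicate 1. These genes were low in all blood libraries, and no blood library reached any marrow library.

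The remaining genes of largest fall were those of dividing cells, apart from Dntt, the DNA polymerase of lymphoid precursors, at 0.596, 0.431 and 0.335 CPM in blood and 22.1, 25.6 and 25.5 CPM in marrow. Pimreg, Pbk, Kif2c, Shcbp1 and Ccnf act in mitosis or its control, and changed by -6.36, -6.08, -5.33, -5.25 and -5.2 on the log2 scale. Kif2c, a kinesin that corrects the attachment of chromosomes, was at 1.37, 0.56 and 0.91 CPM in blood and 37.6, 40.3 and 34.2 CPM in marrow. Without blood replicate 3 Pimreg changed by -7.09, and without blood replicate 1 Shcbp1 by -6.05.

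**Figure D3:**
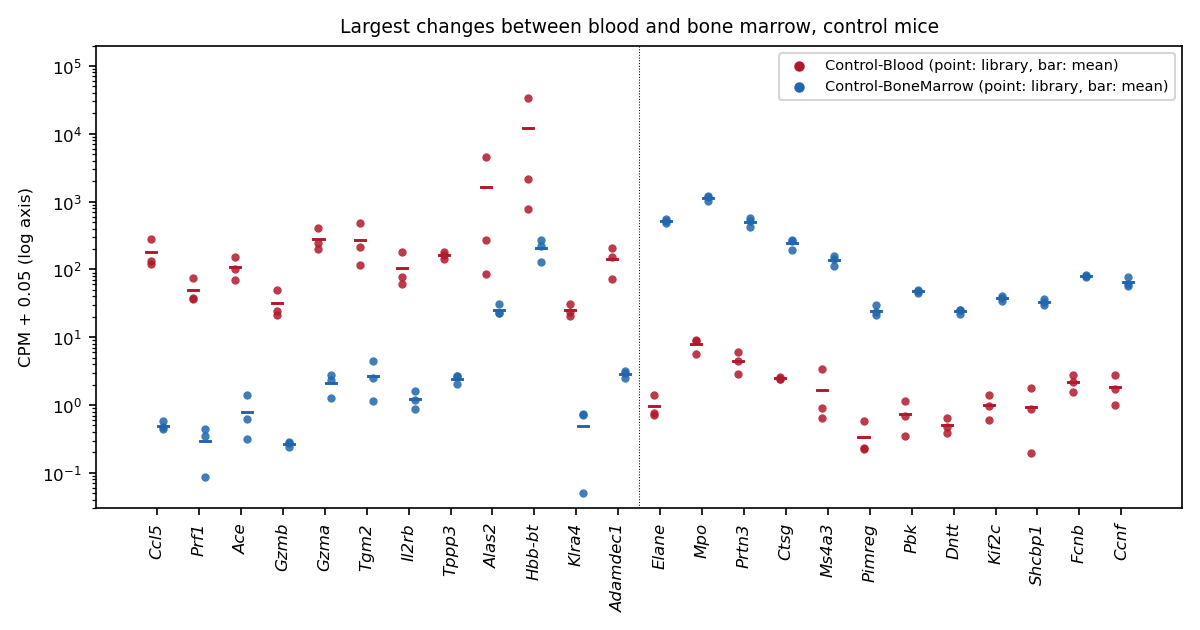
CPM + 0.05 (log axis) of the 12 protein-coding genes with the largest rise and the 12 with the largest fall in blood, with a point for each of 3 blood and 3 marrow libraries and a bar for each mean. Groups do not overlap for any of the 24 genes by the rule that chose them, and the spread of Alas2 and Hbb-bt among blood libraries is wide, with blood replicate 1 far above the others.

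Genes of cell division were lower in blood almost throughout. Of 50 genes of DNA replication, 0 were higher and 47 lower in blood, with a median log2 fold change of -2.75, beside -0.0029 over all tested genes. Of 42 genes of mitosis, 40 were lower and 1 higher, with a median of -4.09. The exceptions were Rfc2 (-0.0051, adjusted p = 0.989), Gins4 (-0.51, adjusted p = 0.0554) and Fen1 (-0.84, adjusted p = 0.330) of replication, which did not pass edgeR's test, and Cdc25b and Pttg1 of mitosis. Pttg1, securin, was higher in blood, at 63.3, 90.6 and 81.9 CPM in blood and 27.2, 42.2 and 34 CPM in marrow. Cdc25b was at 93.5, 17 and 19.4 CPM in blood and 36.1, 30.4 and 34.7 CPM in marrow, where only blood replicate 1 was above marrow, and its log2 fold change of 0.36 (adjusted p = 0.661) became -0.89 (adjusted p = 0.00280) without that library.

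The helicase that opens origins of replication was represented by Mcm5 at 22.1, 15.5 and 18.9 CPM in blood and 176, 160.1 and 158 CPM in marrow and Mcm7 at 17.5, 14.2 and 13.9 CPM in blood and 129, 127 and 134 CPM in marrow. Their log2 fold changes were -3.13 (SE 0.19, edgeR adjusted p = 1.37e-05) and -3.09 (SE 0.17, edgeR adjusted p = 8.89e-06). The origin factor Mcm10 had the largest fall of the replication list, -4.98, from 32.5, 26.8 and 24.4 CPM in marrow to 1.43, 0.603 and 0.671 CPM in blood. Tyms, thymidylate synthase, which supplies thymidine nucleotides, and the kinase gene Cdk1, which starts mitosis, changed by -4.39 and -4.64.

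In mitosis, Birc5, survivin, was at 4.95, 4.7 and 5.75 CPM in blood and 114, 135 and 115 CPM in marrow, with a log2 fold change of -4.56 (SE 0.19, edgeR adjusted p = 4.76e-06). Plk1, a kinase of mitotic entry, was at 1.91, 2.67 and 2.97 CPM in blood and 63.7, 59.9 and 57.7 CPM in marrow, and Cdca8, another member of the chromosomal passenger complex with Birc5, at 7.39, 6.76 and 8.19 CPM in blood and 95.8, 83.1 and 85.6 CPM in marrow. Cdc20, which activates the complex that ends metaphase, was at 2.27, 3.49 and 4.26 CPM in blood and 82.2, 84.8 and 80.1 CPM in marrow, a log2 fold change of -4.61 (SE 0.25, edgeR adjusted p = 8.82e-06). The cyclin gene Ccnb2 was at 12, 10.3 and 11.4 CPM in blood and 93.4, 112 and 93.2 CPM in marrow, a log2 fold change of -3.15 (SE 0.17, edgeR adjusted p = 8.89e-06). The proliferation marker Mki67 was at 61.3, 21.8 and 29.1 CPM in blood and 436, 305 and 368 CPM in marrow and the topoisomerase gene Top2a at 25.5, 8.27 and 17.6 CPM in blood and 433, 319 and 351 CPM in marrow. In each of these genes blood replicates were low but not at 0, and no blood library reached any marrow library. The azurophil and progenitor shares given above moved in the same direction, and how much of these transcripts came from dividing eosinophil precursors and how much from other dividing marrow cells was not tested.

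Promoters of genes that moved together were searched for short motifs in the 250 bases before each annotated start, in both orientations, using RefSeq windows on GRCm38.p6. The E2F motif was searched as TTGGCGC or TTCCCGC, the cell cycle homology region (CHR) as TTTGAA and the CCAAT box as CCAAT. Of 50 windows of 41 replication genes, 28% held an E2F motif, beside 9.60% of the 12293 windows of tested genes and 5.62% of all 32851 windows in the table. A CCAAT box was in 60% of them, beside 35.6% and 33.8%. Of 36 windows of 34 mitosis genes, 30.6% held the CHR, beside 11.1% and 16%, and 77.8% a CCAAT box. These shares were not particular to mitosis genes. Of only 7 windows of eosinophil granule genes, 28.6% held the CHR and 71.4% a CCAAT box. A GATA motif, searched as AGATAA, was in 0% of these 7 windows, beside 6.26% of the windows of tested genes. These shares describe letters in a window, and a match is not a bound site.

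The windows of Mcm5, Mcm7, Cdc20 and Ccnb2 are shown because these genes are among those described above. Capitals mark the E2F letters in Mcm5 and Mcm7 and the CHR and CCAAT letters in Cdc20 and Ccnb2, and CCAAT boxes of the former pair, which both windows hold, are left in lower case. Mcm5 (chr8:75109259-75109508, plus strand) holds E2F letters 164 and 149 bases before the start, in the order read. Mcm7 (chr5:138171884-138172133, minus strand, the window of 1 of its annotated starts) holds them 165 bases before. Cdc20 (chr4:118437344-118437593, minus strand) holds the TTTGAA letters 18 bases before the start and CCAAT boxes 53 and 8 bases before. Ccnb2 (chr9:70421555-70421804, minus strand) holds the same letters 167 bases before and CCAAT boxes 87, 54 and 21 bases before. Each is written 5′ to 3′ toward the start.
Mcm5: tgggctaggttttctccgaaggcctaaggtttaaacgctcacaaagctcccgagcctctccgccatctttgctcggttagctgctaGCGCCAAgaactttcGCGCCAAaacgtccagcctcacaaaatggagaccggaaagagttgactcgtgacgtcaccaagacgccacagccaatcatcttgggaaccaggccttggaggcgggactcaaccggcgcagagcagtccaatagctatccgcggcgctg
Mcm7: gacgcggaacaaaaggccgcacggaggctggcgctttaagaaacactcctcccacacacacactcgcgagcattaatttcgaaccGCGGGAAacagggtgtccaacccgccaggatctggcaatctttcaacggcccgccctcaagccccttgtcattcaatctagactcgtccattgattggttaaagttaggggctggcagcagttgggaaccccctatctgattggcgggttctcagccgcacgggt
Cdc20: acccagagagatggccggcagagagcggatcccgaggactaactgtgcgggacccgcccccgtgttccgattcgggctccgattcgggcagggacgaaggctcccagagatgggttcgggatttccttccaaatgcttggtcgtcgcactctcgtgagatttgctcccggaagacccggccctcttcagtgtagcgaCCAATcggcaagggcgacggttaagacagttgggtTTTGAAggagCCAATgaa
Ccnb2: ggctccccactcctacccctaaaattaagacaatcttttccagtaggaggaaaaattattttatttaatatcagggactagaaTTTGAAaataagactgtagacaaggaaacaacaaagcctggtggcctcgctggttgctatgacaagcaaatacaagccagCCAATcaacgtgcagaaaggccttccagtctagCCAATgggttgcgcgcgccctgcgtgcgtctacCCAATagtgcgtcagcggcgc

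The transcripts of the eosinophil granule were lower in blood. Of 8 tested members of the granule list, 0 were higher and 7 lower in blood, with a median log2 fold change of -1.4. Epx, eosinophil peroxidase, at chr11:87864000-87875536, was at 451, 457 and 923 CPM in blood and 5047, 3315 and 3553 CPM in marrow, a log2 fold change of -2.7 (SE 0.33, edgeR adjusted p = 0.000493). The study used mice heterozygous for Cre at Epx, so its counts describe an intact and a modified allele together in both groups. Prg2, which encodes major basic protein, was at 10031, 14453 and 23234 CPM in blood and 49506, 40949 and 43201 CPM in marrow, a log2 fold change of -1.49 (SE 0.31, edgeR adjusted p = 0.00645). Of the granule genes it had the highest level per transcript length in both groups, with 18981 RPKM in blood and 53165 in marrow. Prg3, a second major basic protein, was at 256, 373 and 614 CPM in blood and 2050.4, 1891 and 1649 CPM in marrow, with a log2 fold change of -2.17.

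The eosinophil-associated ribonucleases fell less evenly. Ear2 was at 2143, 2384 and 3545 CPM in blood and 6485, 7624 and 6017 CPM in marrow, a log2 fold change of -1.32 (SE 0.23, edgeR adjusted p = 0.00322). Ear1 (-0.74, adjusted p = 0.0375), Ear10 (-1.03, adjusted p = 0.0140) and Rnase2a (-2.54, adjusted p = 0.0113) also passed edgeR's test, though the calls were lost when 4, 1 and 1 of the 6 libraries respectively were left out singly. Rnase2a was at low counts and changed by -3.31 without blood replicate 1. Ear6 was at 3381, 3727 and 5314 CPM in blood and 5900.4, 6060.1 and 5152 CPM in marrow, with overlapping groups and an adjusted p of 0.130. Ear genes are near-identical copies and reads that map to several places were not counted, so the split among them is uncertain. Within blood, replicate 3 had the highest level of Epx, Prg2, Prg3 and Ear2, and the smallest of these falls, without blood replicate 1, was -1.18 (Ear2).

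Receptors by which eosinophils sense their surroundings were more often higher than lower. Of 20 surface receptors, 11 were higher and 2 lower in blood, with a median of 0.90. Siglecf, the sialic acid receptor used to identify mouse eosinophils, was at 719.6, 912 and 862 CPM in blood and 456, 398 and 452 CPM in marrow, a log2 fold change of 0.93 (SE 0.17, edgeR adjusted p = 0.00318). Ccr3, the receptor for eotaxins, was at 1196, 1725 and 1702 CPM in blood and 848, 983 and 1103 CPM in marrow, a log2 fold change of 0.66 (SE 0.20, edgeR adjusted p = 0.0350), and this call was lost in every setting that left out a library other than blood replicate 1, with no filter, and with library size alone (0.35, adjusted p = 0.222). Cd9, a tetraspanin, was at 474, 426 and 561 CPM in blood and 138, 130.2 and 127 CPM in marrow, the largest rise of the list (1.89). The inhibitory receptor genes Cd300a, Cd300lf and Pirb rose by 1.63, 1.43 and 1.15, and C5ar1, the receptor for complement C5a, by 1.52.

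Both members that were lower are cytokine receptors. Il5ra, the specific chain of the interleukin 5 receptor, was at 43.7, 69.2 and 47.1 CPM in blood and 88.1, 77 and 85.5 CPM in marrow, a log2 fold change of -0.65 (SE 0.20, edgeR adjusted p = 0.0358). Il1rl1, the interleukin 33 receptor, was at 143, 211 and 192 CPM in blood and 320.4, 267 and 257 CPM in marrow, with -0.63 and an adjusted p of 0.0322. Both calls were lost when 4 of the 6 libraries were left out singly. The shared receptor chain Csf2rb was at 444, 534 and 439 CPM in blood and 526, 335 and 398 CPM in marrow, with overlapping groups and an adjusted p of 0.543.

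Transcription factors of eosinophil development moved in both directions. Of 24, 5 were higher (20.8%, beside 16.2% of all tested genes) and 7 lower (29.2%, beside 18%) in blood, with a median of -0.042. Cebpb, a factor of mature and activated myeloid cells, was at 435, 493 and 412 CPM in blood and 47.8, 75.1 and 42.7 CPM in marrow, a log2 fold change of 3.02 (SE 0.24, edgeR adjusted p = 4.81e-05). Myb, which keeps progenitors dividing, was at 6.32, 5.43 and 3.55 CPM in blood and 80.6, 104 and 93.8 CPM in marrow, a log2 fold change of -4.19 (SE 0.25, edgeR adjusted p = 1.41e-05). Gfi1, a repressor of early granulocytes, was at 2.62, 0.905 and 0.575 CPM in blood and 14.1, 17.7 and 21.3 CPM in marrow, a log2 fold change of -3.72, or -4.56 without blood replicate 1. Blood libraries were above all marrow libraries for Cebpb and below them for the other 2 genes.

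The other factors named here changed less than Cebpb, Myb and Gfi1. Cebpe, which drives terminal granule genes, was at 195, 359 and 249.7 CPM in blood and 584, 569 and 499 CPM in marrow (log2 fold change -1.04), and Gata2 at 40.2, 66.5 and 81 CPM in blood and 147, 136 and 112 CPM in marrow (-1.07). Gata1 was at 104, 206 and 127 CPM in blood and 163, 168 and 145 CPM in marrow, with overlapping groups and an adjusted p of 0.733 from edgeR's test. Spi1, which encodes PU.1, rose (1.06), as did Trib1 (1.62), a pseudokinase that acts in eosinophil development. Lmo2, Cebpd and Ikzf1 were the other members that fell, with -1.5, -1.17 and -0.72. The call of Ikzf1 was lost when any 1 of 5 libraries was left out, and that of Gata2 when 1 was. Myb is also a progenitor marker, and progenitor markers were lower in blood as given above, and the part of progenitors was not tested.

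Receptors that guide cells out of marrow and through tissue split by member. Of 25 tested chemoattractant and egress receptors, 8 were higher and 2 lower in blood (32% and 8%, beside 16.2% and 18% of all tested genes). Without blood replicate 1, 8 were higher and 7 lower, so that the number of falls depended on that library and the number of rises did not. The median of -0.20 turned positive with DESeq2, with no filter and without blood replicate 3. Among sphingosine 1-phosphate receptors, by which leukocytes follow a lipid gradient into blood, S1pr5 was at 12.2, 8.27 and 12.7 CPM in blood and 0.359, 0.414 and 0.327 CPM in marrow (4.9) and S1pr3 at 0.119, 0.172 and 0.144 CPM in blood and 4.06, 5.08 and 3.69 CPM in marrow (-4.82). S1pr1 was at 42.2, 5.73 and 6.8 CPM in blood and 3.17, 2.9 and 4.08 CPM in marrow, where the rise of 2.42 fell to 0.89 (adjusted p = 0.0262) without blood replicate 1. This call was lost with limma-voom and without each marrow replicate in turn. S1pr5 and S1pr1 are also expressed by NK and T cells, whose shares were higher in blood, and their part was not tested.

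Cxcr4, the receptor that holds cells in marrow, was at 275, 346 and 383 CPM in blood and 329, 234 and 214 CPM in marrow, with overlapping groups and an adjusted p of 0.206. The chemerin-binding receptor gene Ccrl2 was at 76, 74.4 and 22.1 CPM in blood and 2.54, 3.12 and 2.94 CPM in marrow, a log2 fold change of 4.32 (SE 0.46, edgeR adjusted p = 0.000242). Ccr7, which guides cells to lymph nodes, was at 21.8, 2.67 and 0.527 CPM in blood and 0.209, 0.188 and 0.947 CPM in marrow, and its log2 fold change of 4.19 was 1.84 without blood replicate 1, with an adjusted p of 0.0943. The call of Ccr7 was also lost without marrow replicate 1 or 2, with limma-voom and with the replicate block.

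Adhesion molecules and matrix proteases were higher in blood in 16 of 30 tested members and lower in 0, or 17 and 2 without blood replicate 1, with a median of 0.88. The integrin gene Itgax, whose product CD11c marks dendritic cells and activated eosinophils, was at 139, 124 and 139 CPM in blood and 17.4, 15.5 and 13 CPM in marrow, a log2 fold change of 3.13 (SE 0.18, edgeR adjusted p = 1.16e-05). Itgal, the chain of LFA-1 by which leukocytes hold to endothelium, was at 1097, 807 and 789 CPM in blood and 200.3, 149 and 166 CPM in marrow, and Itga4, a chain of VLA-4, at 689, 444 and 496 CPM in blood and 111, 134 and 143 CPM in marrow. Their log2 fold changes were 2.38 and 2.07. The common chain Itgb2 and its partner Itgam rose by 0.96 and 1.03, and the ligand gene Icam1 by 1.45. The shares of NK and T cell genes were also higher in every blood library than in every marrow library. So was the dendritic share, whose counts came mostly from the antigen presentation genes Cd74, H2-Aa, H2-Ab1 and H2-Eb1. Of 12 tested dendritic cell genes, 5 were higher in blood and 2 lower, the latter being Flt3 (-0.98) and Siglech (-2.01). The part of such cells in the values of adhesion genes was not tested.

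The blood libraries held far more RNA of genes that respond within minutes to hours to a stimulus. Of 31 immediate early genes, 22 were higher and 1 lower in blood, with a median of 2.47, the highest of the 24 lists. Btg1, a brake on cell division, was the most even, at 1892, 2070.4 and 1687 CPM in blood and 183, 219 and 201 CPM in marrow, a log2 fold change of 3.23 (SE 0.18, edgeR adjusted p = 1.09e-05). Nr4a1, an orphan nuclear receptor induced by many signals, was at 306, 170.3 and 102 CPM in blood and 4.51, 4.36 and 4.12 CPM in marrow, and the phosphatase gene Dusp5 at 301, 211 and 275 CPM in blood and 17.6, 32 and 27.8 CPM in marrow. Fos, a subunit of the AP-1 factor, was at 70.1, 116 and 19.8 CPM in blood and 7.32, 4.4 and 4.9 CPM in marrow (3.63, or 3.02 without blood replicate 2) and Fosb at 19.3, 18.4 and 2.78 CPM in blood and 0.448, 0.451 and 0.163 CPM in marrow. Dusp1, a phosphatase that ends MAP kinase signals, was at 1165, 3050.2 and 619 CPM in blood and 76.7, 62.4 and 61.2 CPM in marrow, and its log2 fold change of 4.59 was 3.75 without blood replicate 2. Gadd45b was lower (-0.78, adjusted p = 0.0205), a call lost when 4 of the 6 libraries were left out singly. Without blood replicate 1, 22 genes were higher and 3 lower, with Egr2 (-1.44, edgeR adjusted p = 0.0104) and Klf4 (-0.68, adjusted p = 0.0259) beside Gadd45b, against -1.08 and -0.24 with all libraries, neither of which was called.

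Blood replicates did not stand in the same order for these genes. Replicate 2 was highest for Fos, Dusp1 and Btg1 and replicate 1 for Nr4a1 and Fosb, while replicate 3 was lowest of the blood libraries for these 5 genes and still above marrow. The handling of blood and marrow before lysis differed, as described above, and its share in these values cannot be told apart from that of the tissue.

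NF-kB targets and cytokines ranged widely. Of 45 tested members, 32 were higher and 2 lower in blood, or 33 and 3 without blood replicate 1, with a median of 1.28. Cxcl2, a chemokine for neutrophils, at chr5:90903871-90905938, was at 141, 257 and 13.7 CPM in blood and 0, 0.113 and 0.098 CPM in marrow, a log2 fold change of 10.91 (SE 1.33, edgeR adjusted p = 0.000493). The marrow value rests on 6 counts in 3 libraries, and the blood libraries ranged widely, so that the log2 fold change was 10.09 without blood replicate 2. Cxcl3 was at 10.7, 4.82 and 0.767 CPM in blood and 0, 0 and 0.0327 CPM in marrow. This rests on 308 counts in the blood libraries and 1 in the marrow libraries, so no fold change is given. Osm, oncostatin M, was at 759, 1702 and 251 CPM in blood and 51.5, 40.8 and 39.8 CPM in marrow, with a log2 fold change of 4.36 that was 3.53 without blood replicate 2. Il1b was at 109, 35.4 and 9.92 CPM in blood and 2.75, 7.93 and 7.22 CPM in marrow, and its log2 fold change of 3.11 was 1.94 without blood replicate 1. Leaving out 1 of the 6 libraries ended the call of Il1b.

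Other members rose evenly. Nfkbiz, a nuclear regulator of NF-kB, was at 72.6, 59.4 and 37.5 CPM in blood and 3.62, 3.8 and 4.57 CPM in marrow, a log2 fold change of 3.82 (SE 0.28, edgeR adjusted p = 3.02e-05). Cd274, which encodes the checkpoint ligand PD-L1, was at 203, 119 and 212 CPM in blood and 15, 19.5 and 19.8 CPM in marrow, a log2 fold change of 3.3 (SE 0.26, edgeR adjusted p = 4.40e-05). Of the cytokines of type 2 immunity for which eosinophils are known, Il4 was at 69.3, 93.6 and 103 CPM in blood and 58.8, 65.9 and 56.3 CPM in marrow, with a log2 fold change of 0.55 and an adjusted p of 0.0454, whereas Il13 was at 2.21, 6.46 and 1.15 CPM in blood and 18.2, 12.3 and 12.3 CPM in marrow. Il13 (-2.11) and Il6 (-1.67) were the members that fell. Without blood replicate 2, Il13 changed by -3.09. The calls of Il4, Il13 and Il6 were each lost when some single library was left out.

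Promoters of the last 2 lists were searched for motifs chosen after the values were seen. The cyclic AMP response element (CRE) was searched as TGACGTC or TGACGCA and the NF-kB motif as GGGAATT or GGGACTT or GGGGATT or GGGGCTT, in both orientations. Of 37 windows of 28 immediate early genes, 32.4% held a CRE, beside 7.23% of the windows of tested genes. Of 45 windows of 35 genes of the NF-kB list, 46.7% held an NF-kB motif, beside 16.9%. The NF-kB motif was also in 26% of the windows of replication genes, which were lower in blood. It was in 13.9% of those of mitosis genes and 16.2% of those of immediate early genes. The windows of Btg1 (chr10:96616751-96617000, plus strand, CRE letters 105 bases before the start) and Cxcl2 (chr5:90903649-90903898, plus strand, NF-kB letters 97 bases before the start) are shown as examples of the genes with the most even and the largest rise, with the motif in capitals.
Btg1: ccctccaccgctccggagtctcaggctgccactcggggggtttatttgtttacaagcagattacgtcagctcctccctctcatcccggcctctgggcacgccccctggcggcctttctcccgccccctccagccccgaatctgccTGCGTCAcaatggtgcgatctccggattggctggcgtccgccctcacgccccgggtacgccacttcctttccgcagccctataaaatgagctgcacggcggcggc
Cxcl2: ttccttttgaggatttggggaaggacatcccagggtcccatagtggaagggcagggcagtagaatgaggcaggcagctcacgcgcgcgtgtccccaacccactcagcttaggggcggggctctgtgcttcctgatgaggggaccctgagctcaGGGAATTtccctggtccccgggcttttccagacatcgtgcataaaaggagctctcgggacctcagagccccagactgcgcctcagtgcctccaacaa

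Interleukin 5 acts through JAK2 and STAT5, whose targets include the PIM kinases and SOCS proteins. Of 29 genes of this pathway, 11 were higher and 2 lower in blood, or 14 and 3 without blood replicate 1, with a median of 0.34. With library size alone 6 were higher and 2 lower and the median was 0.029, so that the size of this shift depends on the scaling. The 11 are 37.9% of the list, beside 16.2% of all tested genes. Pim1 was at 2347, 1948 and 1601 CPM in blood and 370.3, 352 and 377 CPM in marrow, a log2 fold change of 2.42 (SE 0.19, edgeR adjusted p = 4.79e-05). Pim3 was at 190.1, 276 and 109 CPM in blood and 20.9, 17.1 and 16.9 CPM in marrow and Socs2, a feedback inhibitor, at 59.6, 67.9 and 82.8 CPM in blood and 28.4, 27.9 and 22.5 CPM in marrow. The members that fell were Il5ra and Ccnd1, cyclin D1, the latter at 5.49, 2.07 and 2.01 CPM in blood and 11.4, 5.3 and 9.15 CPM in marrow with overlapping groups and a log2 fold change of -1.45, or -2.08 without blood replicate 1, and a call lost when 4 of the 6 libraries were left out singly. Il5 itself, for which the table does not separate the transgene from the mouse's own gene, was at 528, 381 and 348 CPM in blood and 309.9, 368 and 300.3 CPM in marrow, with an adjusted p of 0.185.

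Survival and death genes of the BCL2 family and their partners were higher in 8 of 27 tested members and lower in 0, or 12 and 3 without blood replicate 1. The median of 0.22 turned negative with library size alone, where 8 were higher and 6 lower. Risers lay on both sides of the balance between survival and death. The death-promoting genes Pmaip1, Bbc3 and Bmf changed by 3.43, 0.82 and 1.29, with Pmaip1, which encodes NOXA, at 254, 280.1 and 415 CPM in blood and 22.3, 33.7 and 32.2 CPM in marrow. The protective gene Mcl1 was at 1385, 2532 and 1559 CPM in blood and 810.3, 868 and 885 CPM in marrow (1.09), and Bcl2a1b and Bcl2a1d, near-identical copies whose split is uncertain, changed by 1.26 and 1.32. The calls of Bcl2a1b, Bcl2a1d and Bmf were lost when 3, 2 and 1 of the 6 libraries were left out singly. Birc3, an inhibitor of apoptosis, rose by 1.2.

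Interferon response genes were higher in 19 of 43 tested members and lower in 0, or 18 and 2 without blood replicate 1, with a median of 0.56. The antiviral sensor gene Oas1a was at 20.7, 24.8 and 27.9 CPM in blood and 6.72, 6.28 and 7.71 CPM in marrow, a log2 fold change of 1.82 (SE 0.21, edgeR adjusted p = 0.000332). Oasl2 (1.8) and the nucleic acid sensor gene Zbp1 (1.67) rose to a like degree, as did the factor gene Irf7 (1.81). Some members of large rise rested in part on blood replicate 1. Isg20, an exonuclease, was at 350.4, 23.3 and 37.3 CPM in blood and 6.75, 9.55 and 9.54 CPM in marrow, and its log2 fold change of 3.99 became 1.82 without that library, while the call was lost when 1 other library was left out. Isg15 went from 2.46 to 1.53 without blood replicate 1. Rsad2 was at 361, 27.9 and 39.2 CPM in blood and 4.06, 20.9 and 20.3 CPM in marrow. Its log2 fold change of 3.24 became 1.16 without that library, and the call was lost (edgeR adjusted p = 0.0922). Oas2 and Oas1g went from 3.28 and 3.04 to 2.62 and 2.83 and were still called.

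Of 24 MHC and antigen presentation genes, 16 were higher and 0 lower in blood and 8 were not called, with a median of 1.08. B2m, the common chain of MHC class I, was at 2710.4, 3641 and 4153 CPM in blood and 1124, 1315 and 1194 CPM in marrow, a log2 fold change of 1.53 (SE 0.21, edgeR adjusted p = 0.000813). The class II genes H2-Ab1 and H2-Aa were at 494, 276 and 326 CPM in blood and 75.7, 79 and 69.6 CPM in marrow and 539.6, 293 and 350.0 CPM in blood and 79.5, 83.2 and 79.9 CPM in marrow, and H2-Eb1 at 303, 151 and 196 CPM in blood and 35.4, 38.7 and 34.9 CPM in marrow. Their log2 fold changes were 2.29, 2.29 and 2.58, and all blood libraries exceeded all marrow libraries. Class II genes are also markers of dendritic and B cells. The dendritic cell list holds them, and together with Cd74 they make up most of its counts. That list took 0.245, 0.141 and 0.153% in blood and 0.0571, 0.0623 and 0.058% in marrow. The part of dendritic and B cells in these values was not tested.

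Of 32 Fc, complement and pattern receptors, 13 were higher and 0 lower in blood, with a median of 0.56, or 0.23 without blood replicate 1. Fcgr4, an activating receptor for IgG, was at 32.7, 31.1 and 23.5 CPM in blood and 4.15, 5.11 and 7.71 CPM in marrow, and Cd14, the co-receptor for lipopolysaccharide, at 24.6, 20.7 and 10.8 CPM in blood and 3.29, 4.06 and 3.07 CPM in marrow. Tlr7, a sensor of single-stranded RNA, rose by 1.73, a call lost when either of 2 libraries was left out. These genes are strongly expressed by monocytes. Over the 16 genes of monocytes and macrophages the shares of all counts were 0.271, 0.247 and 0.248% in blood and 0.291, 0.28 and 0.29% in marrow, lower in every blood library. On the TMM scale their sums were 3048, 2671 and 2820 CPM in blood and 2631, 2539 and 2572 CPM in marrow, higher in every blood library. The direction of this list thus depended on the scaling. Of its 14 tested members 7 were higher, among them Csf1r at 839, 899.6 and 833 CPM in blood and 292, 249.8 and 269 CPM in marrow. The 3 that were lower included Vcam1, a marker of marrow macrophages, at 11.9, 13.1 and 18 CPM in blood and 166, 159 and 175 CPM in marrow.

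**Figure D4:**
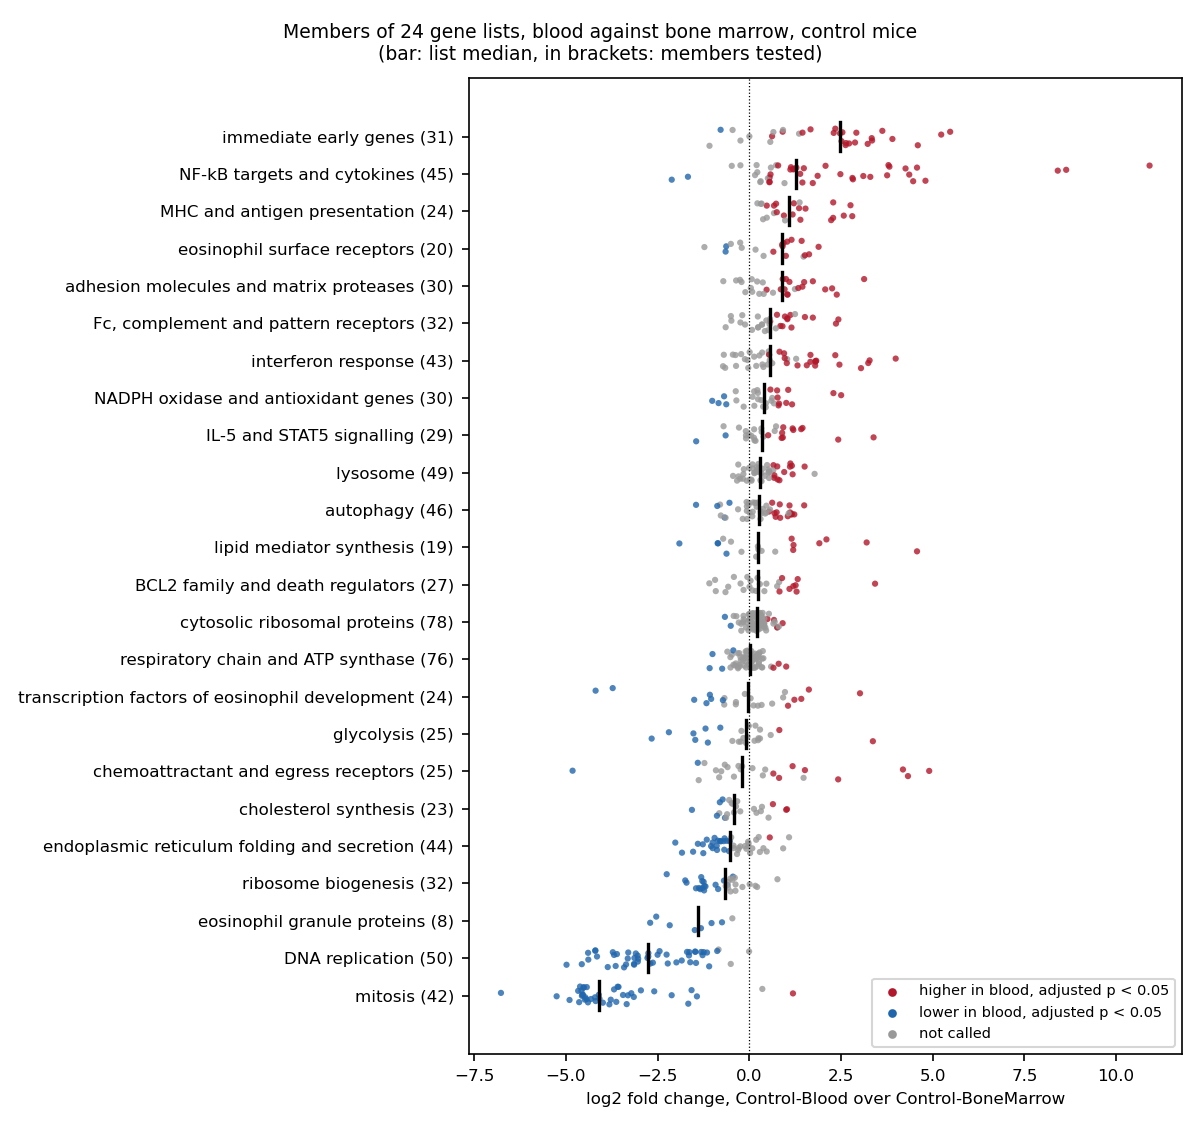
log2 fold change, Control-Blood over Control-BoneMarrow, of each tested member of 24 gene lists, coloured by edgeR's call, with a bar at each list's median. Immediate early genes (median 2.47) and NF-kB targets (1.28) lie to the right, and DNA replication (-2.75) and mitosis (-4.09) to the left.

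Of 32 genes of ribosome biogenesis, 0 were higher and 18 lower in blood and 14 were not called, with a median of -0.67. Wdr12, Nolc1 and Gar1, which process or modify ribosomal RNA or serve those that do, changed by -1.75, -1.23 and -1.45. Wdr12 was at 7.1, 7.75 and 9.49 CPM in blood and 23, 30.1 and 28.6 CPM in marrow. Of 44 genes of folding and secretion in the endoplasmic reticulum, 1 was higher and 22 lower in blood, or 4 and 23 without blood replicate 1, with a median of -0.51. Calr, the calcium-binding chaperone calreticulin, was at 357, 299 and 319 CPM in blood and 1416, 1289 and 1243 CPM in marrow, a log2 fold change of -2.02 (SE 0.16, edgeR adjusted p = 5.39e-05). Sdf2l1 and Hyou1, further chaperones, changed by -1.83 and -1.53, and Rpn1, a subunit of the complex that adds N-glycans, by -1.4. Dnajb9, a co-chaperone, was the member called higher (0.56, adjusted p = 0.0481), a call lost when any 1 of 5 libraries was left out. The 4 called higher without blood replicate 1 were others, Spcs1, Srp14, Sec11c and Xbp1.

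The ribosomal proteins themselves changed little. Of 78 tested, 4 were higher and 2 lower in blood, with a median of 0.20. The list depended on blood replicate 1, since 33 were higher and 2 lower without it. Among them Rps27 was at 1516, 1918 and 2297 CPM in blood and 895, 1210.0 and 948 CPM in marrow (0.91), and Rpl3 at 479, 557 and 557 CPM in blood and 824, 845 and 858 CPM in marrow (-0.67). Both calls were lost without marrow replicate 3, and that of Rps27 also without marrow replicate 1. With library size alone 1 was higher and 7 lower and the median turned to -0.11, so that the direction of this list depends on the scaling.

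Few genes of the respiratory chain and ATP synthase were called. Of 76, 3 were higher and 4 lower in blood (3.95% and 5.26%, beside 16.2% and 18% of all tested genes), with a median of 0.029. Without blood replicate 1, 14 were higher and 4 lower, and with library size alone 1 and 17, and the median changed sign in 5 of 17 settings, so that the balance of this list depends on that library and on the scaling. Among its members, Ndufa12 of complex I fell by a log2 fold change of -1.08, whereas Ndufa6 of the same complex rose by 1.01 and Cox8a of cytochrome oxidase by 0.80. The call of Ndufa6 was lost without marrow replicate 1 or 3, and that of Cox8a without marrow replicate 2 or 3 and with library size alone. Of 25 genes of glycolysis, 2 were higher and 7 lower in blood, or 4 and 7 without blood replicate 1, with a median of -0.087. Eno3, an enolase best known from muscle, was at 33.1, 26.5 and 22 CPM in blood and 2.57, 3.01 and 2.32 CPM in marrow (3.37), against a fall of Pfkl, a phosphofructokinase, at 31.2, 47.9 and 30.6 CPM in blood and 121, 96.9 and 86.5 CPM in marrow (-1.47) and of Tpi1, triosephosphate isomerase (-1.19). The lactate transporter gene Slc16a1 was at 8.88, 2.02 and 1.87 CPM in blood and 25.2, 23.9 and 30.5 CPM in marrow (-2.66, or -3.76 without blood replicate 1) and the glucose transporter gene Slc2a3 at 681, 517 and 402 CPM in blood and 286, 301 and 321 CPM in marrow, a call lost when any 1 of 3 libraries was left out. Of 23 tested genes of cholesterol synthesis and uptake, 3 were higher and 5 lower in blood (13% and 21.7%, near the 16.2% and 18% over all tested genes), with a median of -0.42. With library size alone 2 were higher and 10 lower. The regulator gene Srebf2 (1.03) rose, and Stard4, a sterol carrier (-0.88), and Idi1, an enzyme of the pathway (-1.56), fell, the latter a call lost when either of 2 libraries was left out.

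Called lysosome genes were higher in blood on the TMM scale, while autophagy genes moved in both directions. Of 49 tested lysosome genes, 12 were higher (24.5%, beside 16.2% of all tested genes) and 0 lower in blood, with a median of 0.30. Without blood replicate 1, 21 were higher and 0 lower, and with library size alone 6 and 4. The protease genes Ctsa and Ctss rose by 1.16 and 1.18. Autophagy is the process that the series disrupts in its Atg5-knockout mice. In control eosinophils, 14 of its 46 genes were higher and 4 lower in blood, or 7 and 5 with library size alone, with a median of 0.27. Map1lc3b, which encodes the LC3 protein of the autophagosome membrane, was at 414, 439 and 487 CPM in blood and 163, 163 and 149 CPM in marrow, a log2 fold change of 1.5 (SE 0.15, edgeR adjusted p = 0.000188). The cargo receptor gene Sqstm1 rose by 1.1, Gabarapl2 by 1.14, and the regulators Uvrag and Calcoco1 by 1.23 and 1.11. Atg4c, Bnip3, Atg101 and Snap29 fell by log2 fold changes of -1.45, -0.87, -0.67 and -0.54, calls that were lost when 3, 1, 5 and 4 of the 6 libraries were left out singly. Atg5 was at 44.3, 57.6 and 39.1 CPM in blood and 40.7, 45 and 39.95 CPM in marrow, with overlapping groups and an adjusted p of 0.511. The medians of both lists turned slightly negative with library size alone.

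Of 19 tested genes of lipid mediator synthesis, 7 were higher and 4 lower in blood (36.8% and 21.1%, beside 16.2% and 18% of all tested genes), with a median of 0.25 that also turned negative with library size alone. Pla2g7, which degrades platelet-activating factor, was at 1409.8, 2332 and 2698 CPM in blood and 525, 624 and 566 CPM in marrow, a log2 fold change of 1.91 (SE 0.25, edgeR adjusted p = 0.000723). Alox5ap, needed for leukotriene synthesis, was at 1327, 2062 and 2187 CPM in blood and 799, 899 and 735 CPM in marrow (1.2), and Tbxas1, thromboxane synthase, rose by 1.15. Ptgr1, which inactivates leukotriene B4 and prostaglandins, was at 12.3, 13.2 and 8.48 CPM in blood and 38.7, 45.4 and 43.5 CPM in marrow (-1.91). The lipoxygenase genes Alox15 and Alox5 had log2 fold changes of 0.24 and 0.34, with adjusted p of 0.367 and 0.115. Ptgs2, cyclooxygenase 2, was at 13, 4.61 and 0.431 CPM in blood and 0.299, 0 and 0.425 CPM in marrow, and its log2 fold change of 4.57 was 3.34 without blood replicate 1, with the call lost when any 1 of 3 libraries was left out.

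Of 30 genes of the NADPH oxidase and antioxidant defence, 10 were higher and 4 lower in blood (33.3% and 13.3%, beside 16.2% and 18% of all tested genes), with a median of 0.41. With library size alone 5 were higher and 7 lower, so that the balance of this list depends on the scaling. Nqo1, a quinone reductase, was at 43.9, 49 and 46.7 CPM in blood and 7.11, 8.57 and 8.95 CPM in marrow, a log2 fold change of 2.5 (SE 0.18, edgeR adjusted p = 2.71e-05). Slc7a11, the cystine transporter, was at 109, 89.4 and 127 CPM in blood and 17.6, 24.1 and 24.8 CPM in marrow, and Srxn1, which repairs peroxiredoxins, rose by 1.06. The peroxiredoxin gene Prdx1 fell (-0.69, edgeR adjusted p = 0.0206). Nfe2l2, which encodes a regulator of antioxidant genes, was lower (-0.63, adjusted p = 0.0227), as was its inhibitor Keap1 (-1.01), and the call of Nfe2l2 was lost when 4 of the 6 libraries were left out singly. Fth1, ferritin heavy chain, rose by 1.17.

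Markers of other cell types were tested gene by gene in the same fit. All 10 NK cell genes were higher in blood, with a median of 6.09, and Klrb1c, which encodes NK1.1, was at 33.7, 22.7 and 19.2 CPM in blood and 0.239, 0.526 and 0.425 CPM in marrow. Of 11 tested T cell genes, 7 were higher and 0 lower in blood, among them Zap70, Trbc1 and Cd247 with 6.08, 5.42 and 4.84, or 5.3, 4.71 and 4.08 without blood replicate 1, and Cd3e was at 0 counts in all marrow libraries. Of 9 tested B cell genes, 3 were higher and 0 lower in blood. Bank1 was at 206, 181 and 179.8 CPM in blood and 61, 71.8 and 78.7 CPM in marrow in a way that was even among libraries, whereas Cd79a was at 159, 11.5 and 4.98 CPM in blood and 2.0, 2.44 and 2.65 CPM in marrow and Cd22 at 28.6, 4.48 and 2.64 CPM in blood and 0.508, 0.677 and 0.719 CPM in marrow, mostly from blood replicate 1, without which their log2 fold changes of 4.63 and 4.22 were 1.81 and 2.49. The call of Cd79a was lost with limma-voom and without each marrow replicate in turn. Of 8 tested plasma cell genes, 3 were higher and 2 lower in blood, or 3 and 3 without blood replicate 1, with Jchain, Igkc and Prdm1 at 3.74, 3.68 and 3.51, or 3.08, 2.89 and 3.01 without that library.

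Of 14 red cell genes, 6 were higher and 1 lower in blood. The median of 2.4 turned to -0.44 without blood replicate 1, with 6 higher and 3 lower. Hbb-bs was at 84386, 2864 and 8203 CPM in blood and 592, 1042 and 824 CPM in marrow, and Hba-a2, a near-identical copy of Hba-a1, changed by 4.9, or 2.7 without that library. Klf1, a factor of red cell precursors, was lower in blood, at 0.239, 0.129 and 0 CPM in blood and 1.55, 1.43 and 1.27 CPM in marrow, with -3.54, or -4.3 without it. Of 14 platelet genes, 12 were higher and 0 lower in blood. Ppbp was at 104, 9.43 and 9.25 CPM in blood and 0.896, 1.13 and 1.18 CPM in marrow (5.26, or 3.13 without that library), while Treml1 and Gp1bb changed by 5.01 and 3.88, or 3.11 and 2.61 without blood replicate 1.

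Of 7 tested azurophil granule genes, 6 were lower and only Nkg7, which NK cells also express, was not called. Of 18 neutrophil genes, 4 were lower and 0 higher, or 11 and 1 without blood replicate 1. With the replicate block 8 were lower and 0 higher, as with library size alone. Camp, cathelicidin, was at 340.2, 230.5 and 50.1 CPM in blood and 1178, 1863 and 1685 CPM in marrow, and Hp and Ifitm6 changed by -0.78 and -0.67, the latter call being lost without blood replicate 2 or 3 or marrow replicate 2 or 3. Of 11 tested genes of basophils and mast cells, 2 were higher and 6 lower in blood. Cpa3 and Ms4a2 were lower (-2.25 and -2.28) and the chymase gene Cma1 was at 19, 12.1 and 14.4 CPM in blood and 0.209, 0.0752 and 0.163 CPM in marrow, while Tpsb2 and Tpsab1 were at 0 counts in all 6 libraries. Of 9 tested progenitor genes, 2 were higher and 5 lower in blood, with Cd34 at 5.31, 6.38 and 7.33 CPM in blood and 39.5, 41.9 and 42.1 CPM in marrow and Hoxa9 at -4.35. Of 7 tested genes of marrow stroma and endothelium, 1 was higher and 5 lower in blood. Col1a2 was at 0 counts in blood and 6.04, 3.27 and 2.35 CPM in marrow, at least 78.8-fold lower in blood when 3 counts over the group are taken as the limit, and Pdgfrb and Cxcl12 changed by -2.45 and -5.33. Of 12 tested dendritic cell genes, 5 were higher and 2 lower in blood, or 5 and 3 without blood replicate 1. With all libraries, those higher were Cd74, H2-Aa, H2-Ab1, H2-Eb1 and Itgae, and those lower were Flt3 and Siglech. Of the 10 eosinophil genes, 2 were higher and 6 lower in blood, the former being Siglecf and Ccr3.

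To see how far the counts depend on these transcripts, all marker genes of other cell types were taken out before scaling and testing, a setting chosen after the values were seen. Of 13590 genes then tested, 2248 were higher and 2381 lower, and 4530 of the calls were shared with the full comparison. Transcripts of such cells outside the lists stay in this setting.

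The same contrast in the 6 Atg5-knockout libraries, which share no sample with the control libraries, gave 3256 genes higher (23.5% of 13853) and 3336 lower (24.1%), of which 729 (5.26%) and 849 (6.13%) were past both thresholds. Of the 4678 genes called in control eosinophils, 4606 were tested there. Of these, 4575 (99.3%) had the same direction and 4046 (87.8%) were also called with it, which is 63.1% of the 6413 genes called in the knockout and tested in control. Among genes not called in control, 78.2% had the same direction, and among all 13406 genes tested in both, 85.5%. The red cell share was 0.422 to 0.731% in the knockout blood libraries, so that none held as much as control blood replicate 1.

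For genes of the main groups the values of both genotypes are given side by side. Log2 fold changes in control and Atg5-knockout eosinophils were -4.56 and -4.69 for Birc5, -3.09 and -3.36 for Mcm7, and -9.11 and -9.76 for Elane. Epx changed by -2.7 and -3.57, and Prg2 by -1.49 and -2.21. Btg1 changed by 3.23 and 3.89, Cebpb by 3.02 and 4.27, and Siglecf by 0.93 and 1.02. In the lists, 49 of 50 replication genes and 41 of 42 mitosis genes were lower, and 26 of 32 immediate early genes and 36 of 45 NF-kB targets were higher in knockout blood. Genes of red cells did not follow, since Hbb-bs changed by 5.28 in control and 0.66 in the knockout, and Alas2 by 6.02 and 0.14. Whether effects differ between genotypes was not tested.

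**Figure D5:**
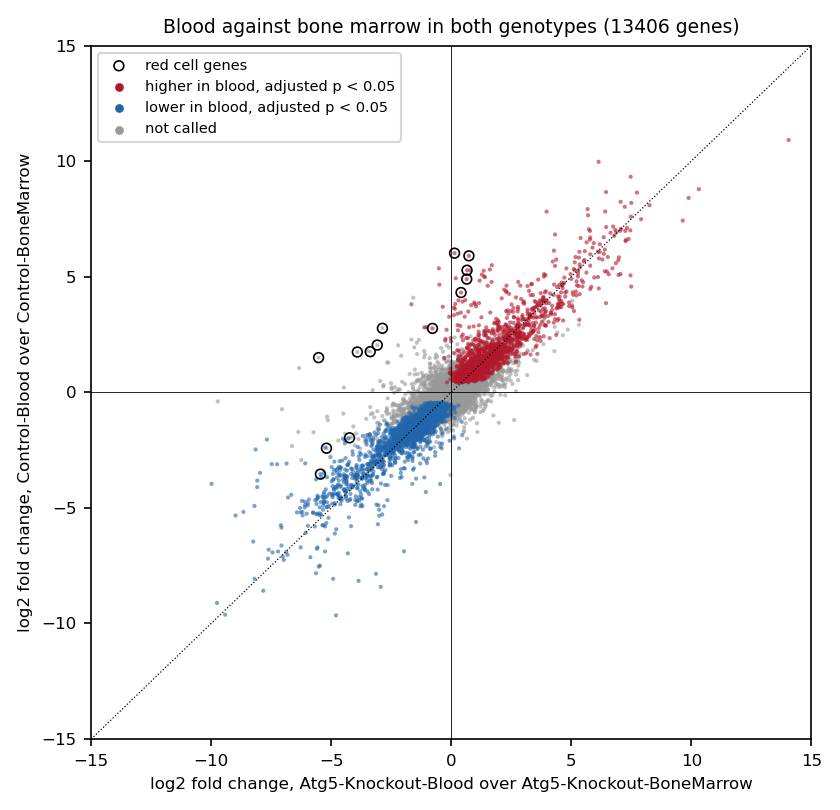
log2 fold change of blood over bone marrow in Control (vertical axis) and Atg5-Knockout (horizontal axis) libraries for 13406 genes tested in both, coloured by the call in control, with red cell genes ringed. Of the called genes tested in both, 99.3% have the same direction, and ringed genes lie off the diagonal.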

How the data were processed

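The authors deposited raw counts per gene in 1 table of 12 libraries, without normalization. Per its header, featureCounts 2.0.1 was run with the Ensembl 92 annotation (GRCm38) and no strand option, so reads of overlapping antisense genes were not separated, and without counting reads that map to several places. The Methods name HISAT2 2.2.1 and an annotation on GRCm39. The header carries the paired-end option although the Methods state single-end reads, so whether reads or fragments were counted is uncertain. Coordinates are those of the table. The table holds 53801 genes, of which 49674 identifiers matched a GENCODE M39 symbol, and 0 columns were left unused. Alignment and counting were not repeated.

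Blood and bone marrow were compared in the 6 control libraries with edgeR 4.0.16 (R 4.3.3, quasi-likelihood test, TMM, filterByExpr with minimum count 10 and minimum total 15, prior count 0.125, Benjamini-Hochberg adjustment). SE is the log2 fold change divided by the root of F. RPKM used the lengths in the table. Tested on simulated counts of this comparison (13669 genes), the fit recovered 48 of 50 genes at an absolute log2 fold change of 3, 35 of 47 at 2, 13 of 49 at 1 and 1 of 49 at 0.5, with 3 false calls of 13205. The simulation changed only a small share of the genes, equally up and down, from a mean pooled over both groups. These rates therefore do not cover a contrast in which 2212 genes were called higher and 2466 lower. Alternatives were DESeq2 1.42.0, limma 3.58.1 (voom, with and without quality weights), other scaling and filters, red cell or marker genes removed, all 12 libraries, a replicate block, and leaving out each library. Removing all markers was added after seeing the data.

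The gene lists, markers and members were chosen with earlier results of these data known. Genes were named by a rule: in each direction the 12 protein-coding genes with the largest change, called with and without blood replicate 1, without overlap and with at least 20 CPM in every library of the higher group; the 3 tested members of each list with the lowest p; Epx, Prg2, Prg3, Siglecf, Ccr3, Il5ra, Csf2rb, Cxcr4, S1pr1, Itga4, Atg5 and Il5. Some items that the rule names are not reported here. Any other gene was picked with its values known. Promoter windows are from RefSeq (GRCm38.p6). Floors cover counting error only, because no molecular identifiers are named for the reads.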

Additional observations from a re-analysis of the deposited data

How the results depend on the processing

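Of 128 called genes named by the rule, 116 kept direction and call under all 17 alternatives, and 12 lost the call under at least 1 (among them Alas2, Ccr3, Cd79a, Cox8a, Hbb-bt, Ifitm6, Il5ra, Ndufa6, Rpl3, Rps27 and S1pr1). The scale mattered most for the balance of calls. With library size alone, 1308 genes were higher and 3906 lower in blood, against 2212 and 2466 in the main fit. The genes higher past both thresholds numbered 599 in the main fit, 917 with DESeq2 and 1075 with no filter, both of which test more genes. Leaving out each library in turn gave 1163 to 2808 genes higher, 1464 to 3118 lower, 503 to 731 higher and 615 to 933 lower past both thresholds, and 2548 to 5722 called genes with the same direction in the Atg5-knockout libraries. The lowest of these counts came without a marrow library. The highest came without blood replicate 1, except for genes higher past both thresholds, whose highest count came without blood replicate 3. Each of these fits has 1 library fewer in a group, which by itself lowers the power. Without blood replicate 1 the counts rose nonetheless, and edgeR's biological coefficient of variation between replicates was 0.200, against 0.286 in the main fit. Whether this lower spread accounts for the added calls was not tested.

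Differences in the share of counts, blood minus marrow in percentage points, ranged when libraries were left out from 0.785 to 7.82 for red cells, 0.00854 to 0.0326 for B cells, 0.0321 to 0.0491 for NK cells, 0.00251 to 0.0148 for T cells, -0.0294 to -0.0181 for basophils and mast cells, 0.0879 to 0.140 for dendritic cells, -5.81 to -4.91 for eosinophil genes, -0.0305 to -0.0287 for progenitors, -0.00426 to -0.00289 for stroma, -0.0397 to -0.0280 for monocytes, -0.308 to -0.277 for azurophil granules, -1.67 to -1.17 for neutrophils, -0.00855 to 0.0310 for plasma cells and -0.00123 to 0.0125 for platelets. These shares do not use TMM factors. Without blood replicate 1 the differences of platelets (-0.00123) and plasma cells (-0.00855) were reversed. The platelet share came mostly from Itgb3 and Itga2b, and 11 of the 14 platelet genes were still called higher there and 0 lower. Cdc25b was also reversed without that library, with a log2 fold change of -0.89 (adjusted p = 0.00280 from edgeR's test) against 0.36 in the main fit. Its log2 fold change was 0.75 without blood replicate 2, and -0.89 and 0.75 were the limits over the libraries left out. The cause was not tested.

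Libraries of blood and marrow with the same number deviated from their group means with correlations of 0.126, 0.146 and -0.0624 across genes, and blood replicates 1 and 2 correlated best with the marrow library of their own number, while blood replicate 3 correlated best with marrow replicate 2. Whether the numbers pair the libraries is thus not settled by the labels or by these values. With the replicate block, 2274 genes were higher and 2638 lower. The block also moved counts in the lists. Of neutrophil genes 8 were then lower, against 4 in the main fit, and of eosinophil granule genes 6 against 7. Of ribosomal proteins 2 were higher and 1 lower, against 4 and 2.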

Other observations

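Gene groups outside the lists above were put together after their values were seen, and their counts are therefore descriptions. Of 12 genes of Ly6C-low monocytes, the patrolling monocytes of blood, 12 were higher in blood (median 2.88 on the log2 scale), and 12 of 12 without blood replicate 1. Treml4 was at 63.7, 64.4 and 58.5 CPM in blood and 1.4, 2.44 and 1.57 CPM in marrow, Cd300e at 21.1, 13.1 and 8.0 CPM in blood and 0.388, 0.113 and 0.196 CPM in marrow and Fabp4 at 9.06, 12.1 and 12 CPM in blood and 0.359, 0.263 and 0.425 CPM in marrow. The chemokine receptor gene Cx3cr1, a defining marker of these cells, was at 84.8, 70.1 and 46.6 CPM in blood and 18.7, 37.1 and 33.2 CPM in marrow. The study names macrophages, but not monocytes, among the cells removed in the isolation. The part of monocytes in the values of Ace, of the Fc receptors, of the class II genes and of the adhesion genes was not tested.

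Of 16 tested genes of the circadian clock, 7 were higher and 0 lower in blood, or 6 and 3 without blood replicate 1 and 5 and 2 with library size alone. Per3 was at 0.0596, 0.775 and 1.29 CPM in blood and 2.63, 3.68 and 2.45 CPM in marrow, with a log2 fold change of -2.01 (edgeR adjusted p = 0.0556), or -1.49 (adjusted p = 0.0151) without blood replicate 1. Per1 was at 295, 251 and 314 CPM in blood and 19.8, 18 and 16.6 CPM in marrow, a log2 fold change of 3.98 (SE 0.18, edgeR adjusted p = 6.99e-06), and 3.98 in the Atg5-knockout libraries. Per2 changed by 1.98 and Bhlhe40 by 1.52, while Dbp, Bmal1 and Clock had log2 fold changes of 0.53, 0.46 and 0.34 that did not pass edgeR's test (adjusted p = 0.185, 0.164 and 0.443). The hour at which the animals were sampled is not given in the sources used here.

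Of 12 genes of the response to glucocorticoids, 7 were higher and 0 lower. Sgk1 was at 181, 327 and 204 CPM in blood and 32.8, 33.7 and 39.9 CPM in marrow and Ddit4 at 193, 491 and 430.2 CPM in blood and 42.3, 34.7 and 46.8 CPM in marrow, with log2 fold changes of 2.74 and 3.17. Tsc22d3 was at 169.7, 624 and 369 CPM in blood and 182, 147 and 128 CPM in marrow, with overlapping groups, and its call was lost when any 1 of 5 libraries was left out. Fkbp5, also a target of the glucocorticoid receptor, had -1.07 with an adjusted p of 0.115.

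Only 2 genes were called in opposite directions in the control and Atg5-knockout comparisons. Cdr2 changed by 2.8 in control and -1.09 in the knockout, and Trim10 by 3.81 and -1.66. In control blood replicate 1 they stood at 159.7 and 97.2 CPM, and neither was called without that library.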
